A study of Mus musculus with 18 samples.

Results

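The genes described here are the monocyte-recruiting CC chemokines Ccl2, Ccl7, Ccl8, Ccl12, Ccl6, Ccl9, Ccl24, Ccl3 and Ccl4 and the receptor gene Ccr2. They were taken by symbol as 10 of the 32285 genes listed in each of the 10 mRNA matrices of a single-cell study of mouse skin under stretch. Each symbol matched 1 gene, and all 10 genes are described by cell class, arm and day.

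Mouse back skin was measured by droplet-based 3′ single-cell RNA sequencing 1, 2 or 4 days after surgery. In both arms the skin was cut near the tail, tunnelled beneath as far as the neck and stitched, so the control skin is operated skin and not untouched skin. Mice of the expanded arm (EXP) received a hydrogel expander under the skin near the neck, and mice of the control arm (CTRL) received none. Living cells were sorted, and all mice of an arm and sequencing round were pooled into 1 tube, which gave 5 CTRL and 5 EXP libraries, with rounds 1 and 2 on days 1 and 2 and round 1 on day 4. Strain, age and genotype were not given in the sources used here. Pools of 8 of the 10 libraries carried hashing antibodies, DNA-barcoded antibodies that mark the cells of each mouse, which separated 14 CTRL and 14 EXP mice. The mice of a pool went through the same reaction, so reaction and arm cannot be told apart within a round.

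CC chemokines are small secreted proteins that bind G-protein-coupled receptors on leukocytes and draw them into tissue. CCR2 is the receptor by which classical, Ly6C-high monocytes leave the bone marrow and enter inflamed tissue, and Ccl2, Ccl7 and Ccl12 encode its ligands, with Ccl8 their near relative. Ccl6, Ccl9 and Ccl3 encode ligands of CCR1, a receptor found on monocytes, macrophages and other leukocytes, Ccl4 encodes a close relative of Ccl3, and Ccl24 encodes a ligand of CCR3, the receptor of eosinophils. In skin, macrophages, mast cells and fibroblasts are known sources of such chemokines.

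Of the 9 chemokine genes, 8 lie on chromosome 11 in the mouse build mm10 (GRCm38, GENCODE annotation). Ccl2 (82035571 to 82037453), Ccl7 (82045712 to 82047525), Ccl12 (82101845 to 82103400) and Ccl8 (82115185 to 82116799) lie in that order within 81.2 kb, all on the forward strand. Ccl9 (83572919 to 83578636), Ccl6 (83587882 to 83593087), Ccl3 (83647844 to 83649355) and Ccl4 (83662584 to 83664683) lie within 91.8 kb, the first 3 on the reverse strand and Ccl4 on the forward strand. Ccl24 lies on chromosome 5 (135569937 to 135573049, reverse strand) and Ccr2 on chromosome 9 (124101950 to 124113557, forward strand). Promoters of 6 of the 10 genes were matched in RefSeq (GRCm38.p6), and Ccl2, Ccl7, Ccl4 and Ccl24 were not matched.

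The 250 bases before the start of 2 neighbouring pairs are shown because the members of each pair are compared throughout: Ccl8 (chr11:82114935-82115184) and Ccl12 (chr11:82101595-82101844), forward strand, whose highest levels were in resident macrophages, and Ccl9 (chr11:83578637-83578886) and Ccl6 (chr11:83593088-83593337), reverse strand, of which Ccl6 and not Ccl9 passed the test between arms over macrophage libraries; the difference between these neighbours was not tested. Each is written 5′ to 3′ on the strand of its gene, and capitals mark the motif matches found.
Ccl8: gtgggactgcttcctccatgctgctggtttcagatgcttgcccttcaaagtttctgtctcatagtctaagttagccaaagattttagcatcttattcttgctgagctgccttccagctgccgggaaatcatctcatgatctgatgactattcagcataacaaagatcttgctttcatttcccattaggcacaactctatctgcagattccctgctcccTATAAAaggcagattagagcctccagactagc
Ccl12: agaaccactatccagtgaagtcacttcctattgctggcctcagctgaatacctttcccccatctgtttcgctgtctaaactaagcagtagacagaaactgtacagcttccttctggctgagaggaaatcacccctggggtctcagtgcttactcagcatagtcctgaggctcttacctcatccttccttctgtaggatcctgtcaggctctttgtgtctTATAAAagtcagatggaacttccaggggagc
Ccl9: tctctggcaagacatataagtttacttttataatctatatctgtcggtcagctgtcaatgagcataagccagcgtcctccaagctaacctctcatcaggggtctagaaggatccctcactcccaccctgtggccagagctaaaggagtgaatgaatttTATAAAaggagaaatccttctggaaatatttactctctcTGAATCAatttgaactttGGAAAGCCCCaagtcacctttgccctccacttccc
Ccl6: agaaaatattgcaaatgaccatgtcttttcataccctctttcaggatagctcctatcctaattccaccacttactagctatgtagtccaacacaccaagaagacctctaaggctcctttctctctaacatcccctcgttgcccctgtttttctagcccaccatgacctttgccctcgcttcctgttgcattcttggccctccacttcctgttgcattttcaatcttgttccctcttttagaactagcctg

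The motifs searched on both strands were NF-kappaB, AP-1 (TGANTCA), C/EBP (TTNNGCAA) and GAS (TTCNNNGAA), with TATAAA on the strand of the gene only. Positions are counted back from the start site, with -1 the last base before it. The Ccl9 window held 1 NF-kappaB match at -35, 1 AP-1 match at -53 and TATAAA at -92. The Ccl8 and Ccl12 windows held TATAAA at -32 and -31 and none of the other motifs, and the Ccl6, Ccl3 and Ccr2 windows held no match. Of 32851 RefSeq promoters of the same length, 7.25% held the NF-kappaB motif, 6.75% the AP-1 motif, 9.56% the C/EBP motif, 7.02% the GAS motif and 7.59% TATAAA. The longest run shared by the Ccl6 and Ccl9 windows was 13 bases, and by the Ccl8 and Ccl12 windows 8 bases. These matches describe the letters in the windows and are not measured binding.

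The libraries held 17726739 to 75470722 UMIs of genes (unique molecular identifiers, 1 per captured RNA molecule) and, after filtering, 45457 cells. Any pair of libraries shared at most 0.377% of the cell barcodes of the smaller one. Cells fell into 40 clusters, which were named from marker lists that held none of the 10 genes, and the 10 genes were left out of the clustering. A class name ending in "-like" is such a rebuilt name, and 8 clusters with 11.3% of the cells stayed unnamed. Orders of levels are over the named classes and leave out the unnamed clusters, of which cluster 36, described in the closing section, averaged more Ccl3, Ccl4, Ccl6 and Ccl9 in expanded libraries than any named class. Levels are given as CPM, the UMI count of a gene scaled to the total UMIs of the class in a library, for libraries with at least 20 cells of the class. Where a day has 2 values, round 1 comes first. The control library of day 2, round 2 stood apart from the other controls in its macrophages, as given below, and the class-wide macrophage and monocyte values are given with and without it.

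Among named classes, Ccl2 was highest in resident macrophage-like cells, which in control skin also gave the highest Ccl8, Ccl12, Ccl24 and Ccl9, and in mast cell-like cells. Control resident macrophages held Ccl2 at 8725 and 8477 CPM (day 1), 8061 and 6002 CPM (day 2) and 11598 CPM (day 4). Only the day 1 expanded libraries had 20 or more of these cells, with 5541 and 4006 CPM. Both expanded values lay below all 5 control values. Control mast cells held 2669 to 3483 CPM (n = 5) and expanded mast cells 3772 to 4827 CPM (n = 3), and these ranges did not overlap. Fibroblast-like cells held 777 ± 179 CPM (SD, n = 5) in control and 836 ± 345 CPM (SD, n = 5) in expanded skin. In the order of control means, resident macrophages and mast cells, in the lead, did not overlap in range, and below them MHC class II macrophages and monocytes did.

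Ccl7 was led by mast cells in both arms, at 7163 and 10725 CPM (day 1), 9302 and 11791 CPM (day 2) and 11172 CPM (day 4) in control libraries. The 3 expanded libraries with enough mast cells held 10051 to 10311 CPM, inside the control range. Control resident macrophages held 7715 and 6406 CPM (day 1), 7530.4 and 7044 CPM (day 2) and 10779.8 CPM (day 4), and their range overlapped that of mast cells. MHC class II macrophages followed at 1871 ± 324 CPM (SD, n = 5), and fibroblasts at 1143 ± 142 CPM (SD, n = 5) lay below them with no overlap. Mast cells numbered 357 in control and 196 in expanded skin, 0.594% to 2.53% and 0.216% to 2.55% of the cells of a library, and these shares overlapped.

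Ccl8 in control resident macrophages was 8885 and 8047 CPM (day 1), 15227 and 14403 CPM (day 2) and 36616 CPM (day 4). The day 4 library was higher than each of the others by more than their whole range. The expanded day 1 libraries held 18799 and 17643 CPM, above both control libraries of that day. Ccl12 in the same cells was 351 and 333 CPM (day 1), 457 and 779 CPM (day 2) and 1045 CPM (day 4) in control and 1149.5 and 829.2 CPM in expanded libraries, again above the control values of day 1. Ccl24 was 784 and 474 CPM (day 1), 1476 and 504 CPM (day 2) and 1018 CPM (day 4) in control resident macrophages and 537 and 546 CPM in the expanded ones. The 2 expanded Ccl24 values lay between the control values of that day. With 2 expanded libraries, resident macrophages were given no test.

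Among named classes, Ccl3 and Ccl4 were led by neutrophil-like cells. Expanded neutrophils held Ccl4 at 3733 and 13862 CPM (day 1), 16268 and 11816 CPM (day 2) and 13236 CPM (day 4), and the 2 control libraries with enough neutrophils held 5738 and 4622 CPM. Expanded neutrophils held Ccl3 at 1518 and 5381 CPM (day 1), 6611 and 4204 CPM (day 2) and 9086 CPM (day 4), against 3057 and 1865 CPM in the control ones. For both genes, 4 of the 5 expanded libraries lay above both control libraries, and day 1, round 1 lay below them. Neutrophils numbered 107 in control and 1210 in expanded libraries, and with 2 control libraries they were not tested. In the expanded library of day 1, round 2, 192 of the 210 neutrophils came from 1 mouse. Of the named classes neutrophils also held the most Ccl6, at 994 to 1876 CPM in control and 1271 to 2041 CPM in expanded libraries, and monocyte or recruited macrophage-like cells came next with overlapping ranges. In control skin Ccl9 was highest, among named classes, in resident macrophages (1218 ± 535 CPM (SD, n = 5)), with overlapping ranges down to dendritic-like cells.

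Ccr2 was highest in monocyte or recruited macrophage-like cells, at 403 ± 106 CPM (SD, n = 4) in control and 695 ± 244 CPM (SD, n = 5) in expanded libraries. MHC class II macrophages (305 ± 87.8 CPM (SD, n = 5)), dendritic cells (222 ± 44.3 CPM (SD, n = 5)) and T cells (189 ± 61.4 CPM (SD, n = 5)) followed in control skin, each overlapping its neighbour in the order. Control resident macrophages held 12.6 to 88.2 CPM. All 5 of these values lay below those of the monocytes and of the MHC class II macrophages.

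Shares of cells with a UMI are given after thinning each cell to 2000 UMIs. In control skin, 90.1% of resident macrophages had a Ccl2 UMI, against 4.3% of melanocyte-like cells, which serve as the background of free RNA (unthinned 87.5% and 11.3%, at median depths of 5732 and 3197 UMIs). Ccr2 was found in 51% of control and 52.6% of expanded monocytes and in 0.358% and 0.417% of melanocytes (unthinned 64.8%, 75.4%, 0.306% and 2.33%, at median depths of 6512, 11901, 3197 and 4496 UMIs). Of the 357 control and 196 expanded mast cells, 98 and 141 were deep enough to be thinned, and 93.9% and 84.4% of these had a Ccl2 UMI.

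**Figure D1:**
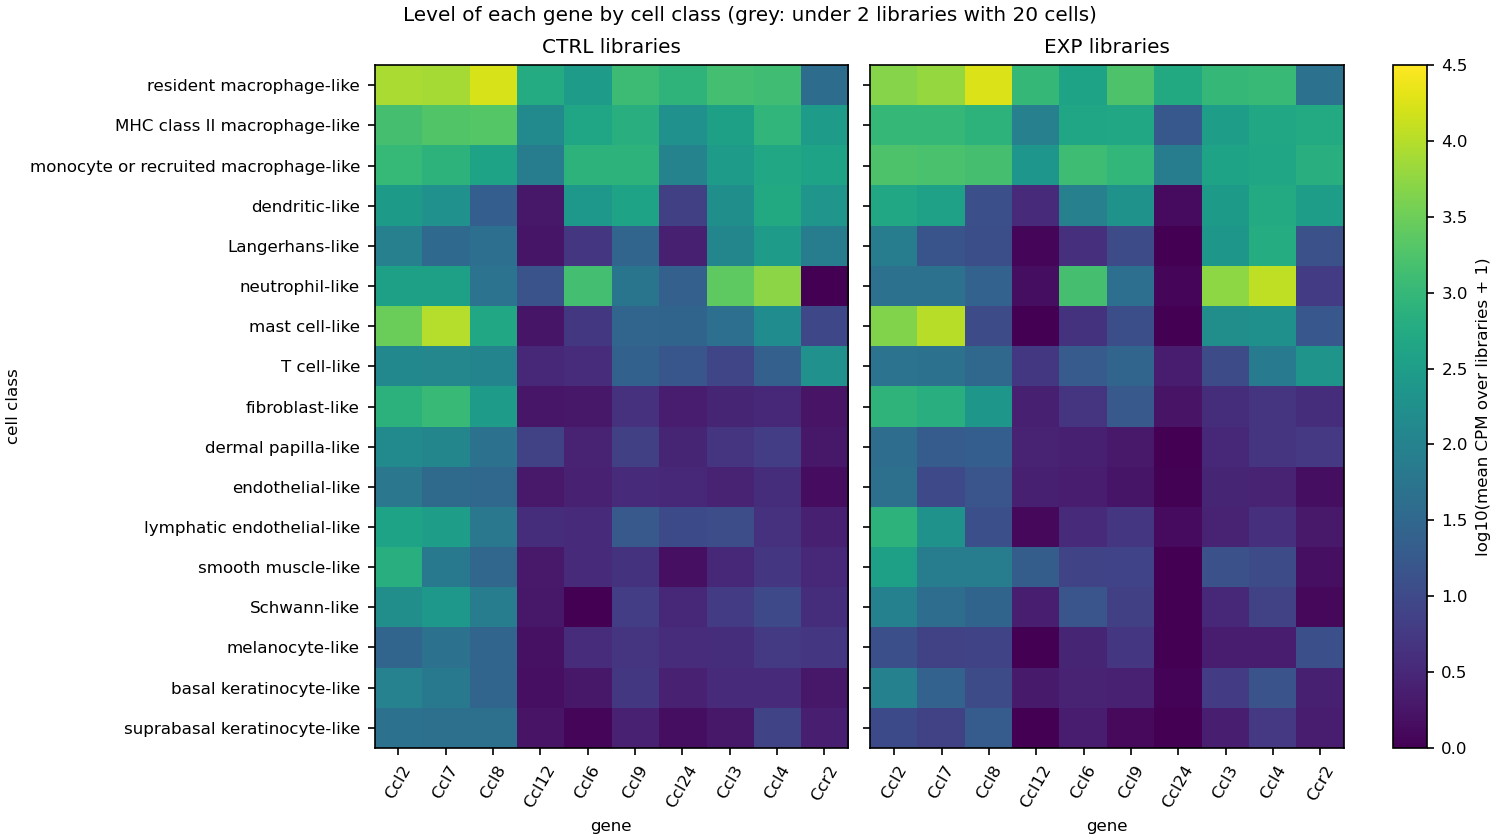
Mean CPM over the libraries of an arm for each gene (columns) and cell class (rows), drawn as log10(mean CPM + 1), with CTRL on the left and EXP on the right. The brightest cells are Ccl8 in resident macrophages and Ccl7 in mast cells in both panels, and Ccl4 in neutrophils; Ccr2 is brightest in monocytes, MHC class II macrophages, dendritic cells and T cells.

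The macrophage or monocyte-like class held 3 clusters, and different clusters made up most of it in each arm. Resident macrophages were 18.3% to 79.1% of the class in control and 0.265% to 43.6% in expanded libraries. Monocyte or recruited macrophages were 4.19% to 35.5% in control and 40% to 96.7% in expanded libraries. As a share of all cells, the resident cluster was 2.53% to 9.76% in control and 0.0911% to 2.1% in expanded libraries, with no overlap. The highest control share of monocytes within the class came from day 2, round 2, which held 275 monocytes and 142 resident macrophages. Against all clusters, the monocyte cluster was led by Chil3, Ly6c2, Msr1, Fcgr1 and Plac8 and the resident cluster by Cd209f, C1qa and C1qc. The third was led by C1qb, C1qa and Cybb, and within the class it was marked by H2-Ab1, H2-Eb1 and Cd74. Within the class the monocyte cluster was led by S100a8, Arg1, Slpi, Wfdc21, Hp and S100a9. Of these, S100a8 and S100a9 are also on the neutrophil marker list.

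**Figure D2:**
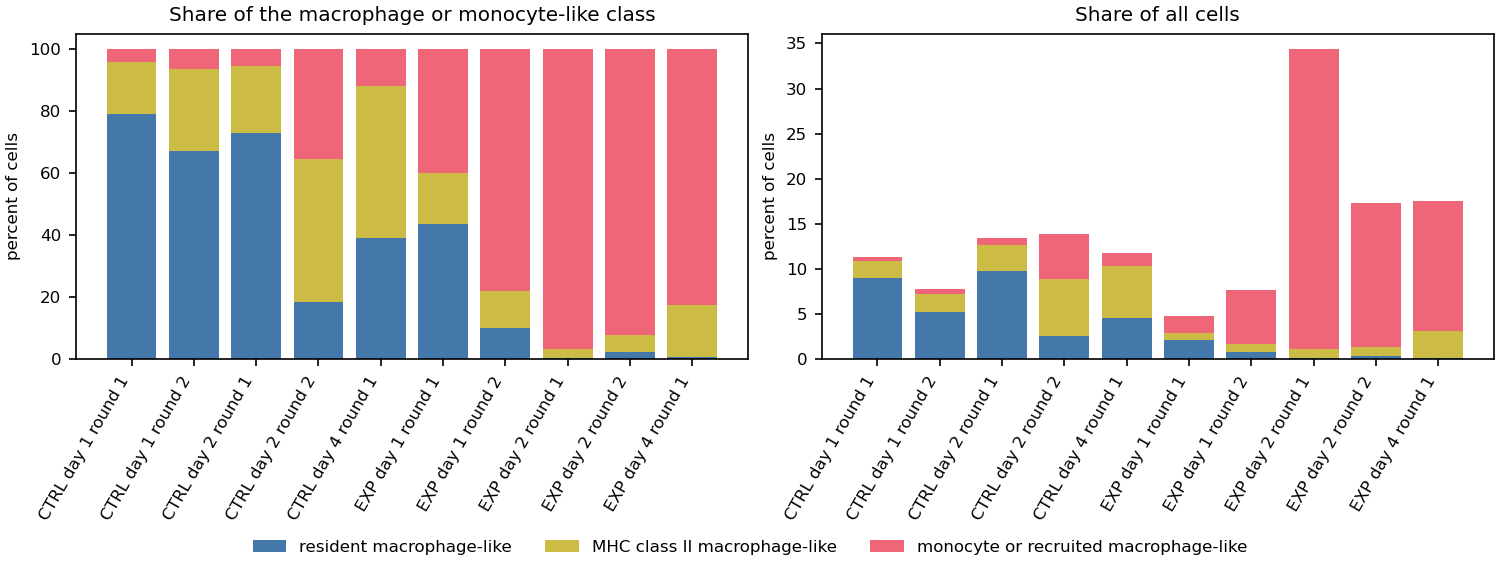
Percent of cells in each of the 10 libraries that belong to the 3 macrophage clusters, as a share of the macrophage or monocyte-like class (left) and of all cells (right). Resident macrophages fill 18.3% to 79.1% of the control bars on the left and at most 43.6% of the expanded ones.

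Over the whole macrophage or monocyte-like class, 7 of the 10 genes passed the test between arms: Ccl2, Ccl7, Ccl24, Ccl3 and Ccl4 fell and Ccl6 and Ccr2 rose. The test was edgeR's quasi-likelihood test on summed counts with day as a covariate and Benjamini-Hochberg adjustment over all 10235 genes tested, at an adjusted p below 0.05. Of those genes 22.2% passed, 9.67% higher and 12.6% lower in expanded libraries. The median log2 fold change was -0.99 over the 10 genes and 0.01 over all genes tested. All log2 fold changes are EXP against CTRL, so a negative value is lower with the expander. These class-wide values include the change in cluster makeup. Without the day 2, round 2 control all 7 remained called and Ccl8 joined them, where 26.5% of 10352 genes passed. In that fit Ccl2 was -1.81, adjusted p = 0.000538, Ccl7 -1.72, adjusted p = 0.00108, Ccl24 -2.87, adjusted p = 0.00223 and Ccr2 2.10, adjusted p = 0.00139.

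Among the CCR2 ligands and Ccl8, Ccl2 in control libraries was 7211 and 6038 CPM (day 1), 5927 and 1750.1 CPM (day 2) and 5191 CPM (day 4). Expanded libraries held 3051 and 2168 CPM (day 1), 1692 and 2083 CPM (day 2) and 1058 CPM (day 4). Every expanded library except that of day 2, round 2 lay below its control, and the control of that round lay inside the expanded range. Ccl2 fell by 1.55 on the log2 scale (SE 0.34, adjusted p = 0.0104). Ccl7 was 6443 and 4756 CPM (day 1), 5648 and 2374 CPM (day 2) and 5149 CPM (day 4) in control libraries and 3279.7 and 1726 CPM (day 1), 1853 and 1691 CPM (day 2) and 1120.5 CPM (day 4) in expanded ones, lower in 5 of 5 pairs (log2 fold change -1.52 ± 0.29 (SE), adjusted p = 0.00651).

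Ccl8 was 7284 and 5741 CPM (day 1), 11171 and 2413 CPM (day 2) and 15899.6 CPM (day 4) in control libraries. In expanded libraries it was 7715 and 1484 CPM (day 1), 2049 and 1274 CPM (day 2) and 2558 CPM (day 4). It was lower in 4 of 5 pairs and did not pass the test (log2 fold change -1.71 ± 0.56 (SE), adjusted p = 0.0511). The expanded library of day 1, round 1 was the highest of its arm, and without it Ccl8 passed at -2.33, adjusted p = 0.00618; with the day 2, round 2 control left out it passed at -1.91, adjusted p = 0.0249. Blocked on day and round, it also passed (-1.72, adjusted p = 0.0128, where 30.1% of genes did). Ccl12 was 240.0 to 539 CPM in control and 127 to 559.5 CPM in expanded libraries (log2 fold change -0.28 ± 0.43 (SE), adjusted p = 0.669), with 2 pairs higher and 3 lower.

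Among the CCR1 ligands and Ccl4, Ccl6 was 393 and 372 CPM (day 1), 227 and 462 CPM (day 2) and 437 CPM (day 4) in control libraries and 901 and 1225 CPM (day 1), 1800.1 and 1215 CPM (day 2) and 440.2 CPM (day 4) in expanded ones. All 5 pairs were higher with the expander, that of day 4 by the least (log2 fold change 1.36 ± 0.33 (SE), adjusted p = 0.0159). Ccl9, its neighbour on the chromosome, was 523 to 1704 CPM and 478 to 1507 CPM, with 2 pairs higher and 3 lower (log2 fold change -0.05 ± 0.26 (SE), adjusted p = 0.919). Ccl3 was 912 and 895 CPM (day 1), 922 and 381 CPM (day 2) and 1124 CPM (day 4) in control and 689 and 638 CPM (day 1), 305 and 249.7 CPM (day 2) and 534 CPM (day 4) in expanded libraries (log2 fold change -1.02 ± 0.26 (SE), adjusted p = 0.0196). Its call was lost without either expanded library of day 2 (adjusted p = 0.0513 and 0.0578) or without the control or expanded library of day 4 (adjusted p = 0.0693 and 0.067). Ccl4 was 734 and 860.2 CPM (day 1), 892 and 676 CPM (day 2) and 1749 CPM (day 4) in control and 603 and 464 CPM (day 1), 427 and 415 CPM (day 2) and 763 CPM (day 4) in expanded libraries, lower in 5 of 5 pairs (log2 fold change -0.96 ± 0.17 (SE), adjusted p = 0.00449). The 7 neutrophil markers summed to 49.3 to 122 CPM in control and 257 to 1727 CPM in expanded cells of this class, and neutrophils are the named class with the most Ccl3, Ccl4 and Ccl6; their part in these results was not tested.

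Ccl24, the CCR3 ligand, had the most negative value of the 10 genes. It was 667 and 344 CPM (day 1), 1090.0 and 179 CPM (day 2) and 485 CPM (day 4) in control libraries. In expanded libraries it was 234 and 82.5 CPM (day 1), 100.4 and 139 CPM (day 2) and 27.8 CPM (day 4). All 5 pairs were lower (log2 fold change -2.59 ± 0.56 (SE), adjusted p = 0.0104). The receptor Ccr2 went the other way, from 78.6 and 87.8 CPM (day 1), 124 and 417 CPM (day 2) and 231 CPM (day 4) in control to 626 and 496 CPM (day 1), 622 and 763 CPM (day 2) and 448 CPM (day 4) in expanded libraries. The arms did not overlap for Ccr2 (log2 fold change 1.72 ± 0.35 (SE), adjusted p = 0.00793). The 7 fibroblast markers, from a class that also holds Ccl2 and Ccl7, summed to 316 to 3679 CPM in control and 32.4 to 362 CPM in expanded macrophage-class cells, and their part in the Ccl2 and Ccl7 values was not tested.

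**Figure D3:**
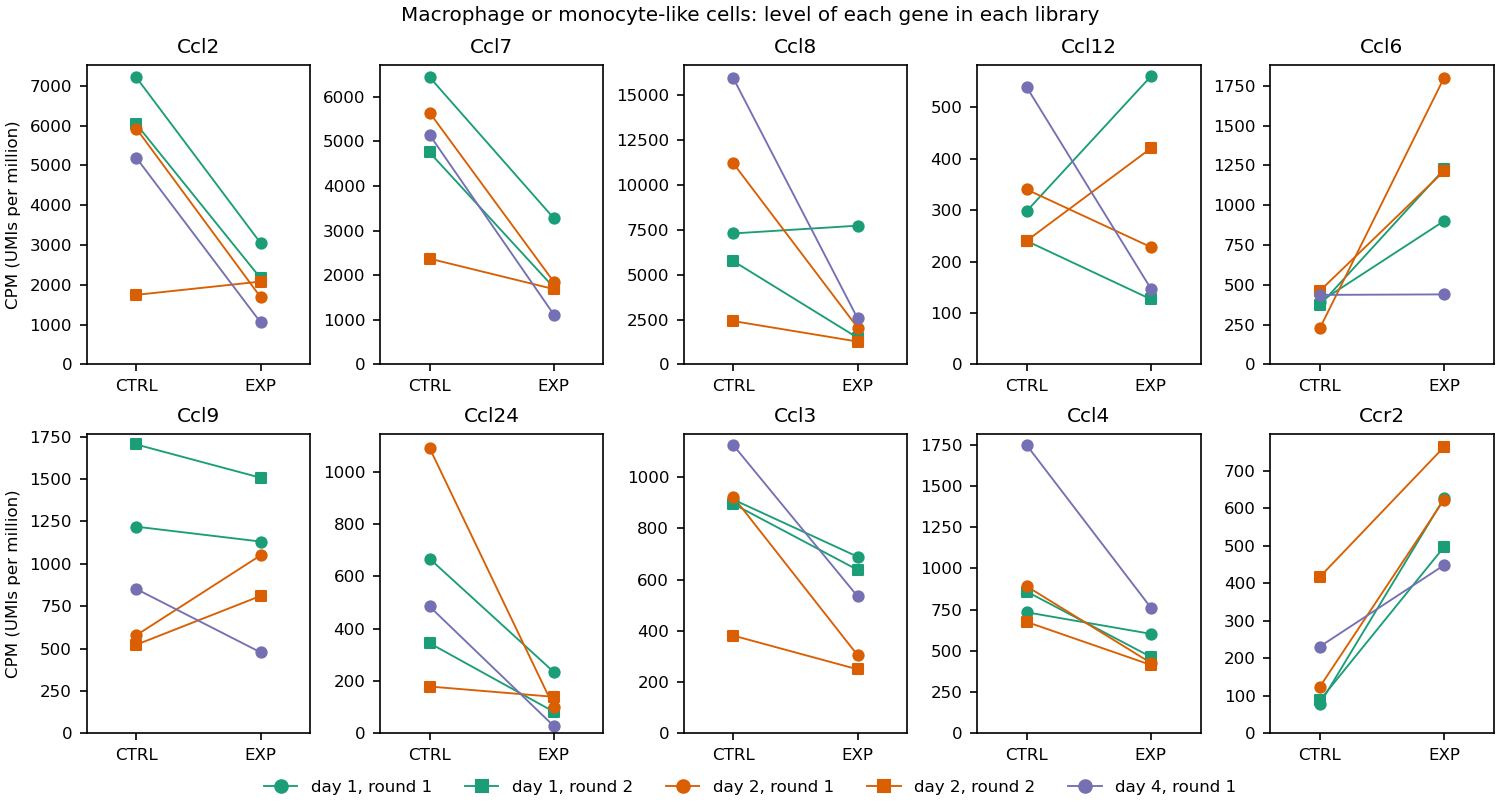
CPM of each of the 10 genes in the macrophage or monocyte-like class, 1 panel per gene with its own linear axis; each line joins the CTRL and EXP library of the same day and round. Lines fall in all 5 pairs for Ccl7, Ccl24, Ccl3 and Ccl4 and rise in all 5 for Ccl6 and Ccr2; the day 2, round 2 control is the lowest control point for Ccl2, Ccl7, Ccl8 and Ccl24.

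With the resident macrophage cluster left out of the class, an alternative chosen after seeing the data, 3 of the 7 calls remained and 12.8% of 9229 genes tested passed. Ccl24 (-1.56, adjusted p = 0.0131) and Ccl4 (-1.01, adjusted p = 0.0418) were still lower and Ccr2 (0.86, adjusted p = 0.0246) still higher. Ccl2 turned to 0.13, adjusted p = 0.738, and Ccl7 was -0.30, adjusted p = 0.275. Ccl3 was -0.01, adjusted p = 0.988, and Ccl6 was 0.97, adjusted p = 0.0575.

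Within monocyte or recruited macrophage-like cells alone, none of the 10 genes passed edgeR's test over 8320 genes, of which 0.529% passed. At an unadjusted p below 0.05, 5 of the 10 genes differed, and 5 passed when genes with low counts were not filtered. The 0.529% belongs to neither count. No share of all genes is given for them or for the unadjusted count at the end of this paragraph. Ccl2 was 1569 and 671 CPM (day 1), 898 CPM (day 2, round 2) and 977 CPM (day 4) in the 4 control libraries with enough cells. It was 1819.9 and 2169 CPM (day 1), 1736 and 2144 CPM (day 2) and 1016 CPM (day 4) in expanded libraries. All 4 pairs were higher with the expander (log2 fold change 0.67 ± 0.27 (SE), adjusted p = 0.347), the opposite direction to the whole class. Ccl7 (0.94 ± 0.31 (SE), adjusted p = 0.25), Ccl12 (1.41 ± 0.57 (SE), adjusted p = 0.347) and Ccr2 (0.64 ± 0.24 (SE), adjusted p = 0.313) were also higher in 4 of 4 pairs. Ccl8 was 38.2 and 403 CPM (day 1), 362 CPM (day 2, round 2) and 813 CPM (day 4) in control and 1315 and 36.3 CPM (day 1), 2121 and 1172 CPM (day 2) and 2664 CPM (day 4) in expanded monocytes, higher in 3 of 4 pairs (1.77 ± 0.78 (SE), adjusted p = 0.397). Ccl6 was 0.51, Ccl9 0.28, Ccl3 0.51, Ccl4 0.13 and Ccl24 -0.68 on the log2 scale. In the expanded library of day 1, round 2, 337 of the 342 monocytes came from 1 mouse. The day 2, round 2 control held 275 of the 455 control monocytes. Without it none of the 10 passed in edgeR's test, where 0.142% of 8429 genes did, and 3 of the 10 had an unadjusted p below 0.05. Ccl2 was then 0.49, adjusted p = 0.705, Ccl7 1.42, adjusted p = 0.148, Ccl12 2.11, adjusted p = 0.387, Ccr2 0.80, adjusted p = 0.414 and Ccl8 1.58, adjusted p = 0.669.

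In MHC class II macrophage-like cells 6 of the 10 genes passed, where 8.71% of 6575 genes did (3.67% higher, 5.05% lower): Ccl2, Ccl7, Ccl8, Ccl9 and Ccl24 fell and Ccr2 rose. Ccl24 was 271 and 145 CPM (day 1), 267 and 70.7 CPM (day 2) and 177 CPM (day 4) in control libraries. The 4 expanded libraries held 11.2 and 18.3 CPM (day 1), 0 CPM (day 2, round 1) and 35.4 CPM (day 4), with no overlap (log2 fold change -3.65 ± 0.57 (SE), adjusted p = 0.00372). Ccl7 was 1888 and 2371 CPM (day 1), 1578 and 1587 CPM (day 2) and 1930.5 CPM (day 4) in control and 1327 and 1147 CPM (day 1), 612 CPM (day 2, round 1) and 933 CPM (day 4) in expanded cells, again with no overlap (-1.15 ± 0.16 (SE), adjusted p = 0.00211). Ccl2 (-0.82 ± 0.18 (SE), adjusted p = 0.0176), Ccl8 (-2.09 ± 0.56 (SE), adjusted p = 0.0367) and Ccl9 (-0.79 ± 0.23 (SE), adjusted p = 0.0473) fell, and Ccr2 rose (0.79 ± 0.22 (SE), adjusted p = 0.0445). Between 2 and 6 genes passed with 1 library left out. The count was 2 without the control library of day 1, round 2 or the expanded one of day 2, round 1, and 3 without the control of day 1, round 1, the expanded library of day 1, round 2 or either of day 4. It was 4 without the expanded library of day 1, round 1 or the control of day 2, round 1, and 6 without the control of day 2, round 2. Ccl7 and Ccl24 passed in each of these 9 fits. Blocked on day and round, Ccl4 passed as well (-1.14, adjusted p = 0.00625), where 16.2% of genes did.

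**Figure D4:**
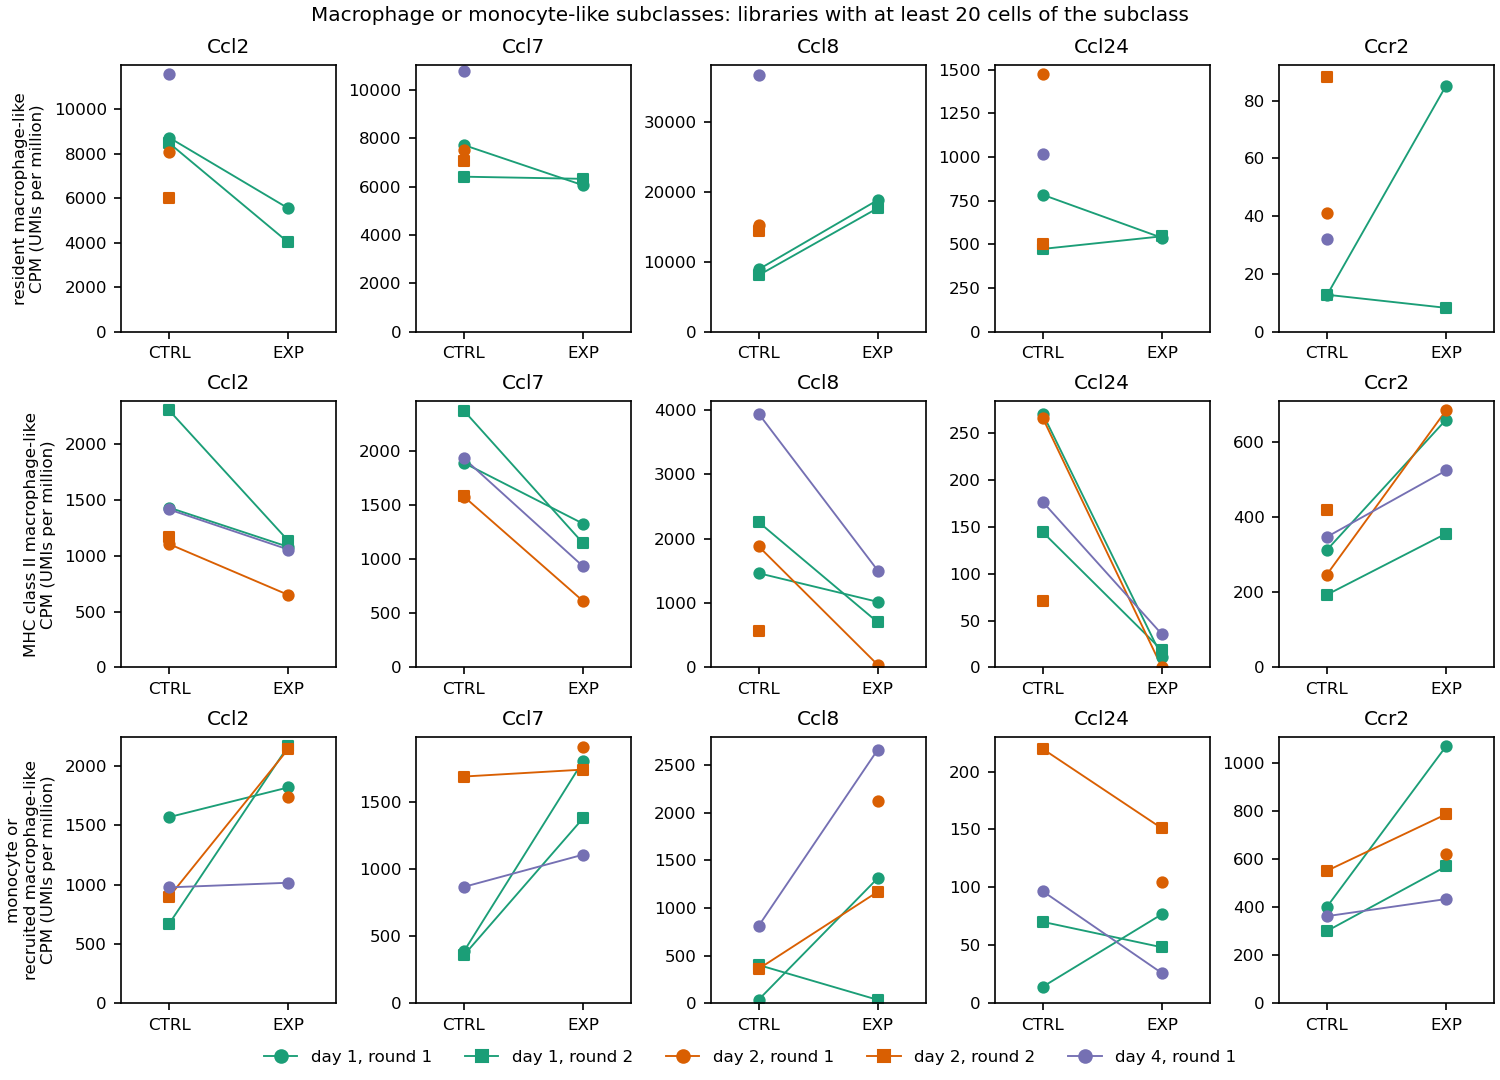
CPM of Ccl2, Ccl7, Ccl8, Ccl24 and Ccr2 (columns) in resident, MHC class II and monocyte or recruited macrophage-like cells (rows), for libraries with at least 20 cells of the subclass; lines join the 2 libraries of a day and round. Ccl7 and Ccl24 fall in all 4 pairs of the middle row, while Ccl2, Ccl7 and Ccr2 rise in all 4 pairs of the bottom row, where no gene passed the test.

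Cells with Ccl2 were mostly the cells with Ccl7. Among control resident macrophages thinned to 2000 UMIs, 97.1% to 99.6% of those with a Ccl2 UMI also had a Ccl7 UMI, against 38.5% to 71.4% of those without (5 libraries). In expanded monocytes the shares were 60.7% to 76.9% with and 13.5% to 35.3% without Ccl2 (5 libraries). Ccr2 was found in 33.3% to 73.7% of expanded monocytes with a Ccl2 UMI and in 44.5% to 68.3% of those without, ranges that overlapped. Cells of a library share depth and free RNA, so these shares are descriptions without a test.

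Fibroblast-like cells held most of the control Ccl7. They were tested over 12622 genes, of which 32.8% passed (16.2% higher, 16.6% lower), and 9 of the 10 genes were abundant enough to be tested, all but Ccl24. Ccl7 was 1101 and 996 CPM (day 1), 1097 and 1145 CPM (day 2) and 1378 CPM (day 4) in control fibroblasts. It was 437 and 936 CPM (day 1), 694 and 543 CPM (day 2) and 794 CPM (day 4) in expanded ones, below all control values in every library (log2 fold change -0.96 ± 0.19 (SE), adjusted p = 0.00361). Ccl2, which lies next to it, was 748 and 753 CPM (day 1), 682 and 622 CPM (day 2) and 1084 CPM (day 4) in control and 306 and 1138 CPM (day 1), 1007 and 675 CPM (day 2) and 1055 CPM (day 4) in expanded fibroblasts (-0.10 ± 0.30 (SE), adjusted p = 0.829). The expanded library of day 1, round 1 was the lowest in both genes. The class, and its UMI shares below, leave out unnamed clusters. Of these, cluster 2 (1636 control and 1153 expanded cells) met all 7 fibroblast markers and is described in the closing section. The clusters behind the class differed: cluster 0 (Cpz, Col1a2, Col1a1) gave 4378 control and 146 expanded cells, and cluster 15 (Cxcl5, Tnc, Saa3) 193 control and 888 expanded cells. Cluster 0 averaged 1270.4 CPM of Ccl7 in 5 control libraries and cluster 15 averaged 735 CPM in 5 expanded ones. These means differ in both cluster and arm, and the part of cluster makeup in the Ccl7 values was not tested.

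Ccl9 rose in fibroblasts, at low levels. It was 3.81 and 3.05 CPM (day 1), 1.15 and 6.4 CPM (day 2) and 2.6 CPM (day 4) in control and 3.47 and 13.8 CPM (day 1), 16 and 23.9 CPM (day 2) and 27.1 CPM (day 4) in expanded fibroblasts, higher in 4 of 5 pairs (1.88 ± 0.48 (SE), adjusted p = 0.0124). Among fibroblast clusters its level was highest in a small one, cluster 30, led by Apod, Gpc3 and Smim41. That cluster held Ccl9 at 35.1 to 124 CPM in 5 control and 58.1 to 250.4 CPM in 4 expanded libraries with at least 20 cells of it. The other 8 fibroblast clusters averaged at most 5.29 CPM in control libraries. Cluster 30 made up 1.64% to 4.78% of control and 6.25% to 19.9% of expanded fibroblasts, with no overlap, and gave 12.4% to 57.5% of the control and 39.5% to 92.9% of the expanded Ccl9 UMIs of the class. The 9 macrophage markers summed to 139 to 190.3 CPM in control and 187 to 280.3 CPM in expanded fibroblasts, and their part was not tested. Ccr2 in fibroblasts was 0 to 1.99 CPM and 0.84 to 9.16 CPM (1.67 ± 0.64 (SE), adjusted p = 0.0659).

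Whether the response of a gene differed between macrophage-class and fibroblast cells was tested with a class-by-arm term in a joint fit of 12607 genes, of which 14.1% passed and none of the 10 did. At an unadjusted p below 0.05, 2 of them differed. The log2 fold change between arms of Ccl2 was 1.14 ± 0.51 (SE) higher in fibroblasts than in macrophages (adjusted p = 0.154). That of Ccl9 was 1.92 ± 0.70 (SE) higher (adjusted p = 0.0865). These are differences in response and not in level. Without the expanded library of day 1, round 1, both Ccl2 and Ccl9 passed (adjusted p = 0.0101 and 0.014), and 1 member passed without the expanded library of day 2, round 1 (Ccl6) or the control of day 2, round 2 (Ccl9).

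Dendritic-like cells showed lower Ccl6 and Ccl9, which encode ligands of CCR1. They had 16.7% of 7771 genes called, 8.99% lower, and 2 of 8 members tested. Ccl3, which also encodes a CCR1 ligand, had a positive value and did not pass (log2 fold change 0.69 ± 0.33 (SE), adjusted p = 0.157). Ccl6 was 189.6 and 180.3 CPM (day 1), 205 and 171 CPM (day 2) and 487 CPM (day 4) in control and 98.4 and 70 CPM (day 1), 164 and 21.6 CPM (day 2) and 87.8 CPM (day 4) in expanded dendritic cells, with no overlap (-1.56 ± 0.39 (SE), adjusted p = 0.0192). Without the control or the expanded library of day 4 it missed the threshold (adjusted p = 0.0676 and 0.0704). Ccl9 was 423 and 565 CPM (day 1), 384 and 238 CPM (day 2) and 464 CPM (day 4) in control and 459 and 180.4 CPM (day 1), 158 and 112 CPM (day 2) and 108 CPM (day 4) in expanded cells (-1.36 ± 0.29 (SE), adjusted p = 0.011). The 9 macrophage markers in this class summed to a median of 8775 CPM in control and 2630.3 CPM in expanded libraries, and their part in the Ccl6 and Ccl9 values was not tested.

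Langerhans-like cells, where 5.08% of 6824 genes passed, 3.33% lower, had 2 of 7 members called, both lower. The 1 cluster behind the class was led by Cd207, Tbc1d4 and Il4i1, with Irf8 and the dendritic marker Xcr1 among its leading genes. It met all 4 Langerhans markers and a share of 0.889 of the dendritic markers. The part of dendritic cells in the values of this class was not tested. Ccr2 was 81.1 and 75.9 CPM (day 1), 122 and 30.9 CPM (day 2) and 77.7 CPM (day 4) in control and 36.7 and 4.8 CPM (day 1), 5.46 and 3.4 CPM (day 2) and 10.3 CPM (day 4) in expanded libraries (-2.97 ± 0.57 (SE), adjusted p = 0.0196). The direction was opposite to that in macrophages, and the difference was not tested. Its call was lost without 5 libraries left out 1 at a time, namely the expanded ones of day 1, round 2 and of day 2, rounds 1 and 2, and both of day 4 (adjusted p = 0.0555 to 0.0801). Ccl9 fell from at most 46.6 CPM (-1.75 ± 0.41 (SE), adjusted p = 0.0361), and with 1 library left out its adjusted p ran from 0.00816 to 0.151; only the fits without the expanded library of day 1, round 1 or the control of day 2, round 1 kept the call. With the block it was -1.71, adjusted p = 0.0539.

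In classes with low levels, Ccl7 and Ccl8 made up most calls. Endothelial-like cells (12.5% of 9380 genes called, 7.03% lower) had lower Ccl7 (-2.12 ± 0.31 (SE), adjusted p = 0.00173) and Ccl8 (-1.77 ± 0.38 (SE), adjusted p = 0.0107), from 11.6 to 48.9 and 9.9 to 67.3 CPM in control libraries. Lymphatic endothelial-like cells (12.4% of 6440 genes called, 6.38% lower) had lower Ccl8 (-2.65 ± 0.37 (SE), adjusted p = 0.000566), from 19.1 to 123 CPM in control to 1.75 to 24.2 CPM in expanded libraries. Blocked on day and round, Ccl7 passed there too (-0.94, adjusted p = 0.0013), where 14.5% of genes did. Basal keratinocyte-like cells (14% of 11025 genes called, 7.02% lower) had lower Ccl7 (-1.34 ± 0.28 (SE), adjusted p = 0.0118), Ccl8 (-1.65 ± 0.42 (SE), adjusted p = 0.0263) and Ccl9 (-1.55 ± 0.41 (SE), adjusted p = 0.0301). Among basal keratinocytes the Ccl8 and Ccl9 calls were lost in 5 and 6 of the 10 fits that left out 1 library, the control and the expanded library of day 4 among them in both cases.

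For comparison, melanocytes, taken as the background of free RNA, held 8.89 to 93 CPM of Ccl7 and 8.89 to 57.2 CPM of Ccl8 in control libraries. The 8 resident macrophage markers summed to 93 to 149 CPM in control and 31.3 to 88.6 CPM in expanded endothelial cells, and their part was not tested. T cell-like (0.203% of 7871 genes), Schwann-like (0.257% of 6621) and smooth muscle-like cells (19.9% of 7192) had no member called by edgeR's test. At an unadjusted p below 0.05 the counts were 3 of 6, 2 of 3 and 1 of 3 members tested, with no share of all genes given at that threshold. Blocked on day and round, Ccl2 (-1.34, adjusted p = 0.0048), Ccl7 (-1.43, adjusted p = 0.00857) and Ccl8 (-1.62, adjusted p = 0.03) passed as lower in T cells, where 0.877% of genes passed. With the same block Ccl7 passed in Schwann cells (-2.68, adjusted p = 0.0181), where 1.24% of genes did, and Ccl2 in smooth muscle cells (-0.98, adjusted p = 0.00466), where 20.5% did. In melanocyte-like cells (1.26% of 4825 genes) no member was abundant enough to be tested.

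Summed over all cells, 4 of the 10 genes passed, where 26.3% of 16510 genes did (12.5% higher, 13.7% lower). Ccl7 (-1.32 ± 0.35 (SE), adjusted p = 0.0231) and Ccl24 (-2.10 ± 0.61 (SE), adjusted p = 0.0322) fell, and Ccl4 (1.33 ± 0.39 (SE), adjusted p = 0.0326) and Ccr2 (1.18 ± 0.21 (SE), adjusted p = 0.00559) rose. Ccl4 was 87 and 83.3 CPM (day 1), 142 and 203 CPM (day 2) and 243 CPM (day 4) in control and 69.3 and 261 CPM (day 1), 855 and 719 CPM (day 2) and 581 CPM (day 4) in expanded libraries, higher over all cells in 4 of 5 pairs and lower within the macrophage class in 5 of 5. Blocked on day and round, Ccl4 over all cells missed the threshold (1.26, adjusted p = 0.0586), as it did without the control of day 2, round 2 (1.22, adjusted p = 0.0732) or both libraries of that round (1.20, adjusted p = 0.11). With the block Ccl8 passed instead (-1.21, adjusted p = 0.00707), where 32.8% of genes did. In such sums, fewer cells of a type and less RNA per cell cannot be told apart. Ccr2 passed with every library left out in turn. The count of calls was 6 without the expanded library of day 2, round 1, 5 without the control of day 2, round 2, and 3 without the control of day 1, round 2. It was 4 without either library of day 1, round 1 and 1 without each of the other 5 libraries.

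The cells that held the transcripts differed between arms. Of the Ccl4 UMIs of a library, 34.2% came on average from resident macrophages in control skin and 52.6% from neutrophils in expanded skin. For Ccl3 the same classes gave 57.5% and 44.2%. Ccl2 UMIs came from fibroblasts (38.9%) and resident macrophages (33.1%) in control skin and from monocytes (36.3%) and fibroblasts (26.7%) in expanded skin. For Ccl7 fibroblasts gave 54.1% in control skin and monocytes 43.3% in expanded skin. Resident macrophages gave 69.6% of Ccl8, 72.1% of Ccl12 and 71.3% of Ccl24 in control skin. Monocytes gave 47.8%, 64.3% and 65.5% of the same genes in expanded skin. Monocytes also gave most of the expanded Ccl6 (66%), Ccl9 (67.8%) and Ccr2 (61%), of which dendritic cells gave 35.2%, 28.8% and 39.1% in control skin.

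Hashed mice gave a view of single days. On day 2 the macrophage or monocyte-like class of 7 control and 7 expanded mice had 5 of 10 members called, where 28.6% of 7493 genes were (14.2% higher, 14.4% lower). Ccl7 (-0.92 ± 0.26 (SE), adjusted p = 0.0155) and Ccl8 (-1.69 ± 0.41 (SE), adjusted p = 0.00606) fell, and Ccl6 (2.08 ± 0.40 (SE), adjusted p = 0.0014), Ccl9 (0.69 ± 0.18 (SE), adjusted p = 0.0103) and Ccr2 (1.40 ± 0.29 (SE), adjusted p = 0.00191) rose. The lowest, median and highest control mice held Ccl6 at 95.3, 300.3 and 762 CPM. The expanded mice held 343, 1555 and 2162 CPM, and the arms overlapped in 1 control and 1 expanded mouse. Within round 1 alone 8 members passed, where 25.7% of 8517 genes did, and within round 2 alone 1 did, Ccr2, where 9.36% of 7648 genes did. The day 2 control mice spanned 993, 2379 and 6359 CPM of Ccl2 (lowest, median and highest), and the expanded mice 1536, 1872 and 2198 CPM (-0.66 ± 0.35 (SE), adjusted p = 0.172). The rounds differed in direction for Ccl2 in edgeR's test. It was -1.96 within round 1 (adjusted p = 0.000123) and 0.33 within round 2 (adjusted p = 0.395).

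On day 4, with 4 control and 4 expanded mice, 9 of 10 members passed, where 23.1% of 7681 genes did (10.8% higher, 12.3% lower). The 8 that fell were Ccl24 (-3.97), Ccl8 (-2.40), Ccl2 (-2.04), Ccl7 (-1.98), Ccl12 (-1.95), Ccl3 (-1.05), Ccl9 (-1.02) and Ccl4 (-0.97), as log2 fold changes with adjusted p between 7.77e-05 and 0.0344 in edgeR's test. Ccr2 rose (0.82 ± 0.22 (SE), adjusted p = 0.0169). Ccl2 was 2936, 4001 and 7315 CPM in the lowest, median and highest control mice and 819, 1111 and 1859 CPM in the expanded mice. Ccl24 was 270.2, 450.1 and 569 CPM in control and 18.8, 26.1 and 58.5 CPM in expanded mice. Neither gene overlapped between the arms. Ccl6 was 379.6, 446 and 473 CPM in control and 106, 404 and 575 CPM in expanded mice (-0.33 ± 0.36 (SE), adjusted p = 0.545). The 3 clusters behind the class differ between arms here as in the libraries, and day 4 mice of an arm came from 1 reaction.

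**Figure D5:**
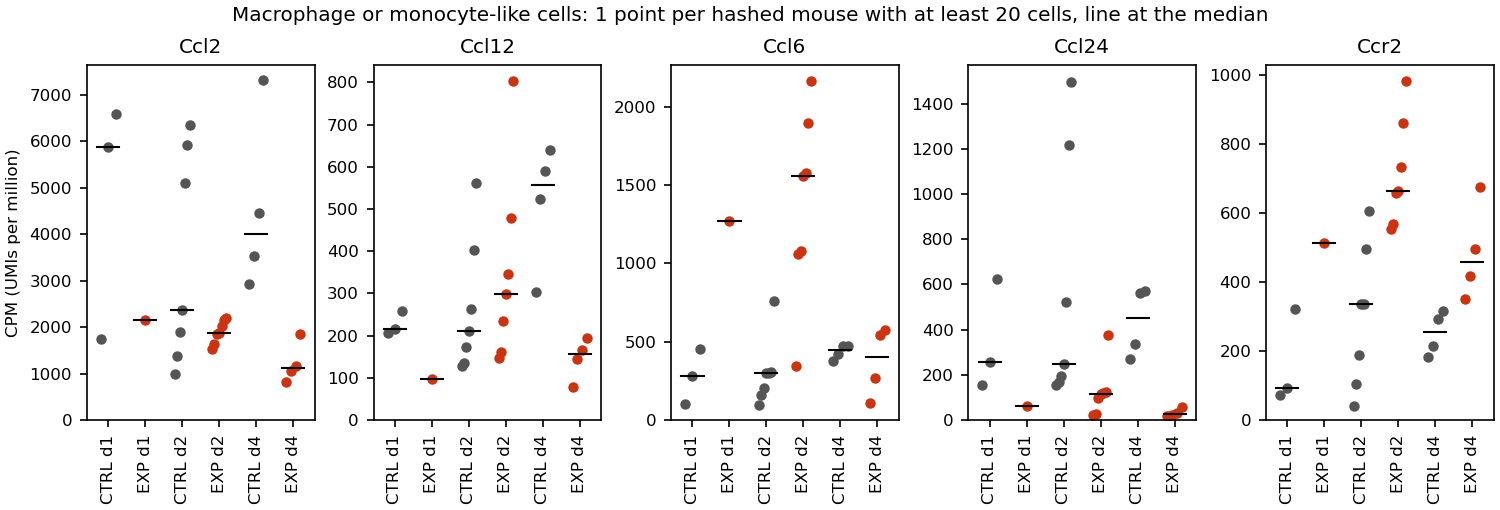
CPM of 5 genes in the macrophage or monocyte-like class of each hashed mouse with at least 20 such cells, by day and arm (grey CTRL, red EXP), with a line at the median. On day 4 the 4 expanded mice lie below all 4 control mice for Ccl2, Ccl12 and Ccl24 and above them for Ccr2; on day 2 the expanded mice are higher for Ccl6 and Ccr2, with overlap.

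Day 1 could not be tested in macrophages by mice, since 1 expanded mouse had at least 20 cells of the class. That mouse gave 337 of the 342 monocytes and 192 of the 210 neutrophils of the expanded library of day 1, round 2. For these classes that library was mostly 1 mouse. In monocytes alone, day 2 allowed a test of 4 control and 7 expanded mice, in which 2.42% of 6783 genes passed, 1.16% higher. All 4 control mice came from the round 2 pool that stood apart, and 3 of the 7 expanded mice from round 1. The fit had a term for round, so its difference between arms rests on the round 2 mice, and leaving out that control library leaves no day 2 control monocytes to test. Ccl2 (1.37 ± 0.18 (SE), adjusted p = 0.00225) and Ccl8 (1.86 ± 0.39 (SE), adjusted p = 0.0256) rose, and Ccl7 (0.42 ± 0.30 (SE), adjusted p = 0.484) did not pass. Within round 2 alone, with 4 and 4 mice, Ccl2 (1.38 ± 0.18 (SE), adjusted p = 0.00273) and Ccl8 (1.87 ± 0.27 (SE), adjusted p = 0.00447) passed in edgeR's test, where 2.83% of 5724 genes did. MHC class II macrophages of day 4, from 4 control and 3 expanded mice, had 5 members lower, where 7.8% of 5806 genes passed and 4.67% were lower: Ccl6 (-2.92), Ccl24 (-2.10), Ccl12 (-1.99), Ccl9 (-1.69) and Ccl8 (-1.56). In fibroblasts of day 2 (7 control and 4 expanded mice, 23.8% of 8950 genes called, 12.5% higher) Ccl9 rose (3.01 ± 0.77 (SE), adjusted p = 0.0117). Among mice that rise rests on round 1, where 3 expanded mice held 23.7, 33.9 and 26.2 CPM and the 3 control mice 1 UMI of Ccl9 in all. In an edgeR fit of that round Ccl9 passed (adjusted p = 0.000149), as 30% of 7597 genes did. Ccl6 (5.51, adjusted p = 0.000103), Ccr2 (7.78, adjusted p = 0.00134) and Ccl8 (1.68, adjusted p = 0.00761) passed as higher in the same fit. The 3 control mice held 0 UMIs of Ccr2 and the 3 expanded mice 28.9, 33.9 and 12.1 CPM, so its fold change starts from 0. Monocytes were 33.2% of the expanded and 0.704% of the control library of that round. The part of their free RNA in these fibroblast values was not tested. For Ccl9 the direction among round 2 mice was opposite, with 1 UMI (2.61 CPM) in the 1 expanded mouse with enough fibroblasts, which held 27 of them. The 4 control mice of that round held 4.72 to 9.68 CPM. Over the 152 fibroblasts of the round 2 expanded library, Ccl9 lay above the control library of that round, as given above. On day 4 (4 and 4 mice, 26.3% of 9566 genes) none of the 3 members tested passed in edgeR's test, and 0 had an unadjusted p below 0.05.

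Summed over all cells, none of the 10 genes passed among 3 control and 3 expanded mice on day 1, where 0% of 12755 genes did, and 1 had an unadjusted p below 0.05. On day 2 (28.2% of 12388 genes called, 14% higher) 6 rose: Ccl6 (2.79), Ccl4 (1.77), Ccl3 (1.51), Ccr2 (1.49), Ccl9 (1.41) and Ccl12 (1.39), and within round 2 alone none passed in edgeR's test, where 0.954% of 12680 genes did and 1 of the 10 had an unadjusted p below 0.05. On day 4 (25.2% of 13363 genes called, 15% lower) Ccl24 (-3.47), Ccl7 (-1.90), Ccl8 (-1.81) and Ccl2 (-1.52) fell. Whether the response differed between days was tested over libraries by an arm-by-day F-test in edgeR, and no gene passed in macrophages (0% of 10235) or fibroblasts (0% of 12622). Before adjustment, 1.68% of macrophage genes and 2.99% of fibroblast genes had a p below 0.05, among them Ccl6 and Ccl9 in macrophages and Ccl12 and Ccl3 in fibroblasts.

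Of a list of 24 other genes of the CC chemokine system, 11 were tested in the macrophage or monocyte-like class, with 1 higher and 2 lower, where 22.2% of all genes tested passed. Ccr1, the receptor of Ccl6, Ccl9 and Ccl3, rose (0.89 ± 0.26 (SE), adjusted p = 0.0325). Ccl19, a CCR7 ligand, fell (-2.89 ± 0.68 (SE), adjusted p = 0.0144), as did Ccr3, the receptor of Ccl24 (-2.40 ± 0.72 (SE), adjusted p = 0.0363). The median log2 fold change of the 11 was 0.34, against 0.01 over all genes tested. In fibroblasts 9 were tested, where 32.8% of all genes passed, with the scavenging receptor gene Ackr4 higher (0.85 ± 0.23 (SE), adjusted p = 0.015) and Ackr1 lower (-0.99 ± 0.27 (SE), adjusted p = 0.0164), and their median was -0.50, against 0.01.

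Over 36 means of a class in an arm, and among 7726 genes with at least 50 CPM in 1 of them, the gene whose level on the log2(CPM + 1) scale was most like that of Ccl2 was Ccl7 (Pearson r = 0.94). Psd3 (0.82), Snx24 (0.80), P2ry10b (0.79) and Plau (0.78) followed. Among the genes most like Ccr2 were Dok2 (0.94), Jarid2 and Ifi209 (both 0.92) and AI504432 (0.91). Ccr2 and Ccl2 correlated at 0.34. These values describe means that share libraries and, between subclasses and their class, cells.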

How the data were processed

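The deposited mRNA matrices are raw UMI counts by gene and cell barcode. The submitters' processing notes name Cell Ranger 6.1.2 and mm10. Hashing matrices are deposited antibody counts by barcode. Other upstream settings were not given in the sources used here. The mRNA and hashing samples of the day 1, round 2 control carry each other's titles, so files were assigned by library type.

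Barcodes below 200 genes or 500 UMIs, or above 10% mitochondrial UMIs, were dropped, leaving 47251 of 55174, and doublets (3.80%), called by Scrublet in scanpy 1.11.5 (1.79%) or by hashtags, were removed. Between 1853 and 7956 cells per library remained, with median depths of 6321.5 to 12716.5 UMIs. Clusters came from leidenalg 0.10.2 at resolution 1 and were named by markers, with naming rules set while the clusters were examined. Mice were called with HTODemux in Seurat 5.3.0 at a quantile of 0.99. UMI counts of each class were added up for each library and, separately, each hashed mouse, and tested with edgeR 4.0.16 (R 4.3.3; filterByExpr, TMM, day as covariate, with round added for mice), in classes with at least 4 libraries or 3 mice per arm with 20 cells. DESeq2 1.42.0 was an alternative, as were no low-count filter, thinned cells, a replicate block, left-out libraries and other clusterings. In the library tests, p-values measure the spread between pools, which may be technical. In the mouse tests they rest mainly on the spread between mice that share a pool. On day 4, with 1 pool per arm, the mouse p-values hold no spread between pools. Counts of members at an unadjusted p below 0.05 have no share of all genes beside them, except in the arm-by-day test.

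The 10 members and the list of 24 other CC chemokine system genes were chosen with earlier results of these data known. The rule for named genes was all members, list genes that passed in macrophages or fibroblasts, the 5 genes most like Ccl2 and most like Ccr2, of which 1 is not reported here. The sequencing round in the titles marks a shared batch: differences between rounds correlated between the arms at 0.66 on day 1 and 0.44 on day 2 over all cells, 0.41 and 0.25 in macrophages and 0.38 and 0.14 in fibroblasts. On simulated counts with 10055 macrophage genes, edgeR recovered 45.9% of genes changed by 1 on the log2 scale. It recovered 96.8% of those changed by 2, with 4.90% false calls. With 12445 fibroblast genes it recovered 69.4% and 97.9%, with 9.04% false calls. The simulated counts held no effect of day, round or cluster makeup, so these rates may not carry over to the measured libraries.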

Additional observations from a re-analysis of the deposited data

Results flagged for a closer look

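Of 100 groups of 4 to 10 libraries or mice, 13 held 1 value far from the others. For independent groups chance gives about 1 in 20. The groups here share libraries and mice between genes and classes, so the count of 13 cannot be compared with that share. The control library of day 4 stood high 4 times: Ccl8 in resident macrophages (36616 CPM, others 8047 to 15227), Ccl4 in the macrophage or monocyte-like class (1749 CPM, others 676 to 892), Ccl2 in fibroblasts (1084 CPM, others 622 to 753) and Ccl6 in dendritic cells (487 CPM, others 171 to 205). The expanded library of day 1, round 1 stood high 4 times: Ccl8 in the macrophage or monocyte-like class (7715 CPM, others 1274 to 2558), Ccl6 in neutrophils (2041 CPM, others 1271 to 1471), Ccl9 in dendritic cells (459 CPM, others 108 to 180.4) and Ccr2 in Langerhans cells (36.7 CPM, others 3.40 to 10.3). In MHC class II macrophages Ccl2 was high in the control library of day 1, round 2 (2305 CPM, others 1106 to 1433) and low in the expanded library of day 2, round 1 (649.9 CPM, others 1057 to 1135).

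Among day 2 mice, 1 control mouse held 762 CPM of Ccl6 in the macrophage or monocyte-like class (others 95.3 to 305), 1 expanded mouse 378 CPM of Ccl24 in that class (others 22.1 to 124) and 1 expanded mouse 3593 CPM of Ccl8 in monocytes (others 825 to 1719).

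Ccl6 was higher with the expander in the macrophage or monocyte-like class (log2 fold change 1.36) and lower in dendritic cells (-1.56). Ccr2 was higher in the macrophage or monocyte-like class (1.72) and in MHC class II macrophages (0.79) and lower in Langerhans cells (-2.97). These opposite directions were not tested against each other.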

How the results depend on the processing

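Of fits that left out 1 library, 209 of 284 over 29 called results kept their call and direction and 75 lost the call. Of 282 other alternative fits over 55 called results, 252 kept both, 29 lost the call and 1 turned. The counts of members called ran from 6 to 8 in macrophages, 0 to 0 in monocytes, 2 to 6 in MHC class II macrophages, 2 to 3 in fibroblasts and 1 to 6 over all cells with 1 library left out. They ran from 5 to 10 over 6 other classes summed (10 with all libraries), from 0 to 3 over Schwann, smooth muscle and melanocyte cells, from 0 to 2 for the class difference, and were 0 for the day differences. The causes of the changes below were not tested. Where a count of members here or below has no share of all genes beside it, it describes the setting and is not a result about the 10 genes.

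Without the filter on low counts, 5 members passed in monocytes, 6 in fibroblasts, 7 over all cells, 32 in the 6 other classes and 10 in the Schwann, smooth muscle and melanocyte classes. In mice the same setting gave 8 in day 2 macrophages (2788 of 18018 genes) and 6 in day 2 monocytes. In fibroblasts of days 2 and 4 it gave 7 and 2 (2275 of 18305 and 2588 of 18397 genes). Over libraries it gave 6 for fibroblast day differences and 1 for the class difference (1596 of 23450 genes). DESeq2 gave 7 over all cells and 1 in the Schwann group of classes. Thinned cells gave 3 in MHC class II macrophages, 5 in the 6 other classes and 1 in the Schwann group. Mice in place of libraries gave 1 in fibroblasts (3743 of 7841 genes), 8 over all cells (5798 of 12688) and 4 in the 6 other classes. Leaving out both libraries of day 2, round 2, chosen after seeing the data, gave 2 in the Schwann group, and members among the clustering genes gave 1. Leaving out the resident cluster gave 3 in macrophages, where 12.8% of 9229 genes passed. Within round 1, 8 members passed in day 2 macrophages (2190 of 8517 genes) and 4 in day 2 fibroblasts (2280 of 7597). Within round 2, 1 passed in macrophages (716 of 7648 genes) and 0 over all cells (121 of 12680). The leading-hashtag rule gave 3 in day 2 fibroblasts (2683 of 9621 genes).

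With the replicate block of day-and-round pairs, 8 members passed in macrophages (30.1% of genes), 7 in MHC class II macrophages (16.2%) and 4 over all cells (32.8%). The same block gave 0 in monocytes, 2 in fibroblasts, 13 in the 6 other classes and 2 in the Schwann group. The block changed 11 calls of members, each given above: Ccl4 over all cells and Ccl9 in Langerhans cells were lost, and Ccl8 in macrophages, over all cells and in T cells, Ccl4 in MHC class II macrophages, Ccl7 in T, Schwann and lymphatic endothelial cells and Ccl2 in T and smooth muscle cells were gained.

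Without the resident cluster Ccl2 turned to 0.13, Ccl12 to 0.55 and Ccl9 to 0.26 in macrophages. Ccl9 there was also 0.0078 without the filter, 0.023 in thinned cells and 0.068 in mice. Ccl4 in monocytes was -0.18 in mice. With 1 library left out Ccl12 ran from -0.78 to 0.14 and Ccl9 from -0.22 to 0.21 in macrophages, and Ccl4 from -0.11 to 0.48 in monocytes. Depth limits the rarer classes: resident macrophages of 3 expanded libraries and neutrophils of 3 control libraries held under 20 cells.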

Other observations

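An unnamed cluster of 17 control and 89 expanded cells, cluster 36, led by Mcpt8, Gzmb, Hdc, Il4 and Il13, held Ccl3, Ccl4, Ccl6 and Ccl9. In the 2 expanded libraries with at least 20 of these cells it averaged 17153 CPM of Ccl4, 12855 CPM of Ccl3, 11115 CPM of Ccl6 and 5307 CPM of Ccl9. Ccl2 (42.1 CPM), Ccl8 (41.3 CPM) and Ccr2 (54.2 CPM) were low in the same cells. Mcpt8 is known as a basophil protease gene.

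A second unnamed cluster of 1636 control and 1153 expanded cells, cluster 2, led by Fmod, Coch and Cck, held Ccl2 at 1174 to 2445 CPM in control and 217 to 1986 CPM in expanded libraries. These clusters were given no test.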
